A study of Mus musculus with 2 samples.

Results

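The genes described here are 10 components of the inflammasome: the sensors Nlrp3, Aim2, Nlrc4, Nlrp1b and Mefv, the adaptor Pycard (ASC), the caspases Casp1, Casp4 and Casp8, and the pore protein gasdermin D (Gsdmd). They were chosen by name, with earlier results of these data known, and each was found in both deposited tables among 23444 gene symbols. The tables hold RNA-seq of macrophages that were differentiated in culture from the bone marrow of FVB mice. There were 2 libraries, 1 per group: one labelled WT (RON proficient) and one labelled RON TK-/- (RON deficient), in which the tyrosine kinase (TK) of RON, the receptor encoded by Mst1r, is deficient. They are called the WT-labelled and the TK-labelled library. Cells of both groups had been given recombinant IL-4 at 10 ng/mL for 72 hours, per the labels. No source used here gives the number of mice behind each library or says whether animals were pooled. A single library per group allows no replicate check and no test, so every difference compares these 2 libraries and not the genotypes.

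Inflammasomes are protein complexes that assemble in the cytosol when a sensor meets a sign of infection or damage. NLRP3 responds to many kinds of membrane and ion disturbance, AIM2 to double-stranded DNA, NLRC4 to bacterial flagellin and secretion system proteins through its NAIP partners, NLRP1B to proteolytic attack such as by anthrax lethal factor, and pyrin (Mefv) to bacterial toxins that inactivate small GTPases of the host. Sensors recruit ASC, ASC recruits caspase-1, and caspase-1 matures interleukin-1 beta and interleukin-18 and cleaves gasdermin D, whose fragments form pores in the membrane. In mouse macrophages the Casp4 product, also named caspase-11, binds endotoxin in the cytosol and cleaves gasdermin D directly. Nlrp3 RNA in macrophages is known to be induced by inflammatory signals, a step called priming.

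Depth and identity of the libraries were checked before the members. Estimated reads, taken as coverage times transcript length over the read length of 50 bases, summed to about 54165464 in the WT-labelled and 61915250 in the TK-labelled library. The targeted gene Mst1r was listed at 0 in both, where 3 reads would have given 0.0107 and 0.0095 FPKM, so it checked neither label. Arg1, a marker of the response to IL-4, had 1.0 FPKM in the WT-labelled library and 5041 in the other, and Il1b had 823 and 0.20, so the WT-labelled library goes against what its label says of IL-4. All directions given here follow the labels and not the activation state. All 8 macrophage markers listed were detected in at least 1 library (Csf1r at 184 and 267 FPKM, Cd68 at 746 and 955), although 3 of them, Cd14, Fcgr1 and Mertk, were at least 2-fold lower in the TK-labelled library and 1, Itgam, higher. Markers of neutrophils summed to 5.07 and 7.51 FPKM with Mpo, Elane, Retnlg and S100a9 at 0 in both. Most of these sums came from the 2 that were detected, Csf3r (2.33 and 5.48 FPKM) and S100a8 (1.44 and 1.75). Markers of dendritic cells, of T or NK cells, of B cells, and of mast cells, basophils or eosinophils stayed under 2.27 FPKM in sum. Those of erythroid cells or megakaryocytes summed to 46.1 and 28.8 FPKM, of which Pf4 made up 45.9 and 28.7, with Klf1, Hbb-bs and Hbb-bt at 0. Stromal markers were not absent: 8 of 8 were above 0, 7 of 8 were detected, and they summed to 705 FPKM in the WT-labelled library and 925 in the TK-labelled library, where Col3a1 (48.5 and 170.5) and Pdgfra (8.93 and 24.3) were at least 2-fold higher. Fewer cells of a type and less RNA per cell cannot be told apart in such bulk RNA, and the part of stromal cells in the values below was not tested.

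Promoters are shown for 4 of the 5 members that stood at least 2-fold apart: Nlrp3 and Casp4, which had the widest differences, and Nlrp1b and Pycard, which differed in the opposite direction. They come from RefSeq on GRCm38.p6, the assembly also named mm10, and run 5′ to 3′ on the strand of the gene up to the last base before any annotated exon of that gene. RefSeq entries were matched for 9 of the 10 members, all but Gsdmd, and each of the 9 had an entry at a transcript start that the deposited tables use. For Casp8 that entry is the start of its less abundant transcripts (58802502), and the window before its main start (58795374) was not analysed here. Capitals mark matches, on either strand, to the kappaB motif of NF-kB, to the STAT6-type motif (TTC and GAA spaced by 4 bases) or to the PU.1 core GAGGAA. Nlrp3 is shown at 2 starts, chr11:59542436-59542685 for the start used in the tables and chr11:59541319-59541567 for a start further upstream, both on the plus strand. Casp4 is chr9:5308610-5308827 on the plus strand, Nlrp1b chr11:71201457-71201706 and Pycard chr7:127993868-127994117, both on the minus strand.
Nlrp3, start used in the tables: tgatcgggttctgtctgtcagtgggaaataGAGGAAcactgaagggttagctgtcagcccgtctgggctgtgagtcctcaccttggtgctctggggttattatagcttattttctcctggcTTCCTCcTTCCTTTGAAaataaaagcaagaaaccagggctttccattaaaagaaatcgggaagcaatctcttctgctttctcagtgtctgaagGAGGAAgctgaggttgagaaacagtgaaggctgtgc
Nlrp3, upstream start: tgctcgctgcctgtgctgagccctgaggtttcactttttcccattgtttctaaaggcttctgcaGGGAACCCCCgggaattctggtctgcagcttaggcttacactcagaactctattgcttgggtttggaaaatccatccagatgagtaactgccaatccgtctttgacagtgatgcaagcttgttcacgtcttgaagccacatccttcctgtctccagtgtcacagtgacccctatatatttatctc
Casp4: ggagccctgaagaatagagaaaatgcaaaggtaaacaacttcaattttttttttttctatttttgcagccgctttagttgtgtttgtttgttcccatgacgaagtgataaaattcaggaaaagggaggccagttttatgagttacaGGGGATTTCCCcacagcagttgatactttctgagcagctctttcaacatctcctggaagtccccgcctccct
Nlrp1b: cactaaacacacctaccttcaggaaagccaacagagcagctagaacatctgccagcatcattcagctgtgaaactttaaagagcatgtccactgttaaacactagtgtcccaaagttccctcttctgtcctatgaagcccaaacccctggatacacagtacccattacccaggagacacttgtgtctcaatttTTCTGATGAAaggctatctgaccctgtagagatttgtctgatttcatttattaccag
Pycard: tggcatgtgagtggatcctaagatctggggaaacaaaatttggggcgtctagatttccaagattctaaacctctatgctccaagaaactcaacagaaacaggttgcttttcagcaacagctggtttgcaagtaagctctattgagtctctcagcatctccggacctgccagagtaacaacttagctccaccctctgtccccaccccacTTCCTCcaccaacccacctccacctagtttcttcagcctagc

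Over the 250 bases before the matched starts, a kappaB match was found for 1 of 9 members, Casp4, where 2 overlapping matches began 104 and 103 bases upstream. Nlrp3 had a kappaB match only before its upstream start, 186 bases away from it. Of all 32851 RefSeq promoters of that length 3.9% held the kappaB motif. The STAT6-type motif stood before Nlrp3 (122 bases upstream) and before the main Nlrp1b start (57 bases upstream), against 5.85% of all promoters. The PU.1 core, named for a transcription factor of the macrophage lineage, was found for 5 of 9 members (Aim2, Casp1, Nlrp1b, Nlrp3 and Pycard) and in 23.3% of all promoters. For Nlrp1b it stood only before the upstream start, 96 bases away from it, and not before the main start shown above. Members were counted over any of their matched starts, while the percentages are per promoter, so the measures are not the same. The interferon response core (GAAA and GAAA spaced by 2 bases, 2.98% of promoters) and the AP-1 motif TGANTCA (6.75%) were found before none of the matched starts of the 9, which for Casp8 leaves out the main start. These matches describe letters in a window and are not binding sites.

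Nlrp3 had the widest difference of the members. Its value was 146 FPKM (fragments counted per kilobase of RNA and scaled to library depth) in the WT-labelled library and 1.03 FPKM in the TK-labelled library, a 142-fold lower level in the latter. About 35110 and 285 estimated reads stood behind these values, and the counting intervals, exact Poisson at 95%, ran from 144 to 147 and from 0.912 to 1.15 FPKM. Such intervals cover counting error only, not the variation between animals or cultures. In the order of all gene symbols Nlrp3 was 518th in the WT-labelled library and 10877th in the other. The gene spans 59542686 to 59566956 on chromosome 11 of mm10, and its listed transcript has 10 exons.

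The other sensors were low or moderate, and none followed Nlrp3 in size. Aim2 had 7.69 FPKM in the WT-labelled library and 9.15 in the TK-labelled library, 1.19-fold apart. Nlrp1b had 0.769 FPKM in the WT-labelled library (186 estimated reads) and 4.19 in the TK-labelled library (1116 estimated reads), 5.45-fold higher in the latter. It was thus detected only through the library in which it was high. Nlrp1b differs in sequence between inbred mouse strains and has a close copy beside it, Nlrp1a (0.10 and 0.039 FPKM), so its value is uncertain. Nlrc4 had 0.249 and 0.634 FPKM, and Mefv 0.388 and 0.037 FPKM on about 72 and 8 estimated reads. By FPKM Nlrc4 was 2.55-fold higher and Mefv 10.5-fold lower in the TK-labelled library. Those 2 sensors stayed under 1 FPKM in both libraries, the minimum used here for a gene to count as detected.

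Among the sensors the order of levels therefore turned. In the WT-labelled library it was Nlrp3, Aim2, Nlrp1b, Mefv and Nlrc4, and in the TK-labelled library it was Aim2, Nlrp1b, Nlrp3, Nlrc4 and Mefv. Of neighbours in these orders, Mefv (0.304 to 0.488) and Nlrc4 (0.190 to 0.319) in the WT-labelled library had counting intervals that overlapped. Aim2 lies on chromosome 1 from 173420604 to 173466036, Nlrc4 on chromosome 17 from 74426295 to 74459108, Nlrp1b on chromosome 11 from 71153102 to 71230733 and Mefv on chromosome 16 from 3707215 to 3718124.

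The adaptor Pycard was higher in the TK-labelled library, opposite to Nlrp3. It had 13.1 FPKM (12.4 to 13.7 by counting) in the WT-labelled library and 40.1 FPKM (39.1 to 41.1) in the other, a 3.07-fold difference on about 1657 and 5747 estimated reads. The gene lies on chromosome 7 from 127991373 to 127993867 on the minus strand, with 3 exons. An unconfirmed transcript model on the opposite strand (Gm45205) overlaps it in the GENCODE M21 annotation and has no entry in the deposited tables. No source used here says whether strand was kept, so reads of that locus cannot be told apart from Pycard. Annotated spans also overlap Casp8 (Gm37760, an unconfirmed model) and Nlrc4 (CT033749.1, a processed pseudogene), each on the strand of the member. Whether reads are shared there was not tested.

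The inflammatory caspases were lower in the TK-labelled library. Casp1, the protease that matures interleukin-1 beta, had 92.4 FPKM in the WT-labelled library and 38.3 in the TK-labelled library, 2.41-fold lower. Casp4, the endotoxin-binding caspase of the non-canonical pathway, had 104 FPKM against 11.0, 9.5-fold lower. These genes are neighbours on the plus strand of chromosome 9, Casp1 from 5298517 to 5307281 and Casp4 from 5308860 to 5336791. Casp12, the next caspase gene of that cluster (5345476 to 5373034), had 5.15 FPKM in the WT-labelled library and 6.42 in the other, a log2 ratio of FPKM + 1 of 0.27 as deposited that turned to -0.28 with the median rescaling described below.

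Casp8 and Gsdmd lay close to equal in the values as deposited. Casp8, the initiator caspase of death receptor signalling that can also process gasdermin D and interleukin-1 beta, had 28.4 FPKM in the WT-labelled library and 27.6 in the TK-labelled library, with counting intervals of 27.5 to 29.2 and 26.8 to 28.4 that overlapped. Gsdmd, the pore-forming substrate, had 33.4 and 28.0 FPKM, 1.19-fold lower in the TK-labelled library. Casp8 lies on chromosome 1 from 58795374 to 58847503 and Gsdmd on chromosome 15 from 75862339 to 75867404.

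**Figure D1:**
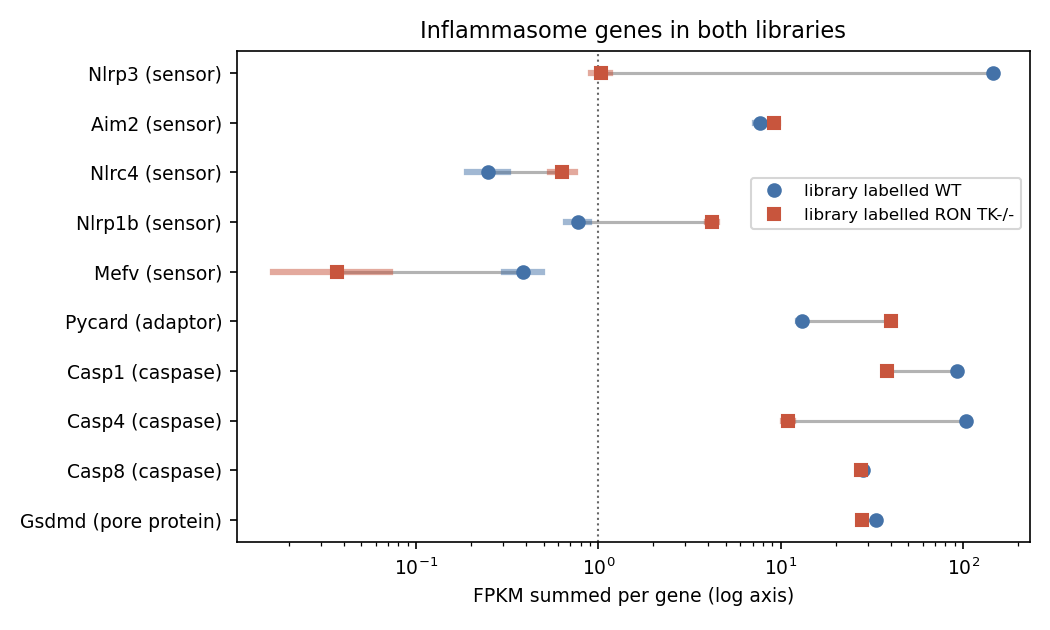
FPKM of the 10 genes on a log axis, circles for the WT-labelled library and squares for the TK-labelled library, with thick bars for the 95% Poisson interval of the estimated reads (counting error only) and a dotted line at 1 FPKM. Nlrp3 falls from 146 to 1.03, Casp4 from 104 to 11.0 and Casp1 from 92.4 to 38.3, while Pycard and Nlrp1b are higher in the TK-labelled library.

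To set the members against all genes, ratios were taken as log2 of FPKM + 1 in the TK-labelled library over the WT-labelled library, a scale that understates differences of low genes. Of the 10 members 8 were detected, and of these 3 were at least 2-fold lower (Nlrp3 at -6.18, Casp4 at -3.14, Casp1 at -1.25) and 2 at least 2-fold higher (Nlrp1b at 1.55, Pycard at 1.55). The background over all 11288 detected genes was 8.71% lower and 25.6% higher by the same measure. The share of higher members was thus near that of all detected genes. Nlrp1b counted among the higher members only because it was detected in the library in which it was high. The other 3 detected members were Aim2 at 0.22, Casp8 at -0.04 and Gsdmd at -0.24. The median was -0.14 over the 8 detected members and 0.57 over all detected genes.

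That median above 0 means the reading of the middle members depended on scaling. With the TK-labelled library multiplied by 0.632 so that the median ratio was 0, 3 members passed the 2-fold line on the lower side (13.9% of all detected genes) and 1 on the higher side (8.42%). Nlrp3, Casp4 and Casp1 then stood at -6.47, -3.73 and -1.89. Pycard passed to 0.90, under the 2-fold line, and Nlrp1b to 1.04. Aim2 turned from 0.22 to -0.36, Casp8 stood at -0.67 and Gsdmd at -0.88.

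**Figure D2:**
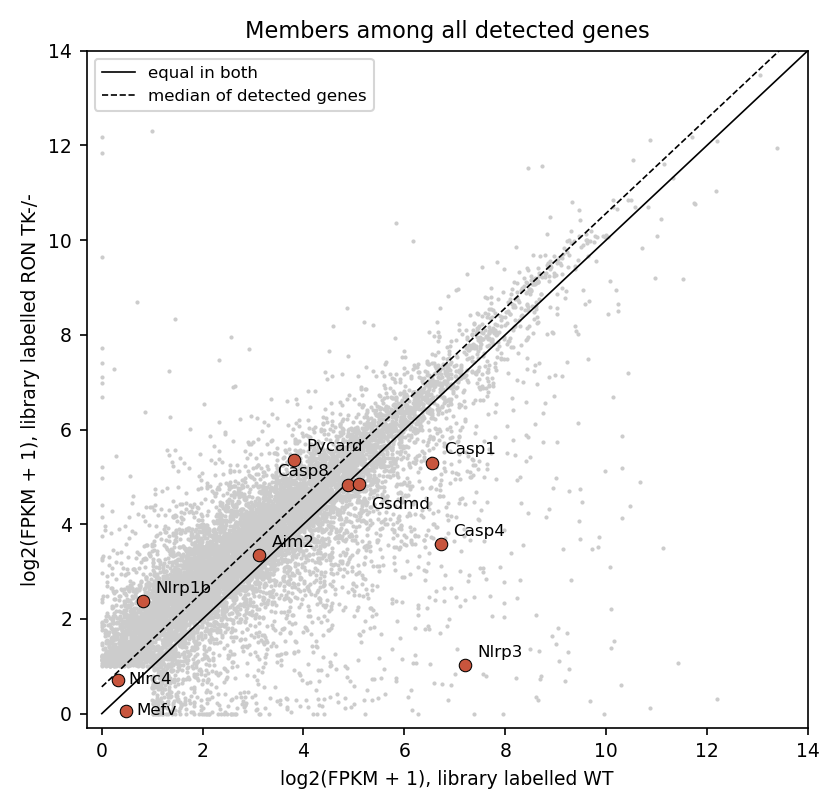
log2(FPKM + 1) in the WT-labelled library (horizontal) and the TK-labelled library (vertical) for all detected genes (grey) and the 10 members (red). The solid line marks equal values and the dashed line the median ratio of 0.57; Nlrp3, Casp4 and Casp1 lie below both lines, and Pycard and Nlrp1b above both.

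Ratios within a library do not depend on that scaling, and FPKM is per length, so levels can be set side by side between genes. Relative to Casp1 in the same library, Pycard stood at 0.141 in the WT-labelled library and 1.05 in the TK-labelled library. Nlrp3 stood at 1.58 and 0.0268 of Casp1, and Casp4 at 1.13 and 0.286. Gsdmd stood at 0.361 and 0.731, Casp8 at 0.307 and 0.72, Aim2 at 0.0832 and 0.239, and Nlrp1b at 0.00833 and 0.109. Casp1 itself was 2.41-fold lower in the TK-labelled library, so a gene that differed less than Casp1 rises on this scale. Gsdmd and Casp8 rise although their own FPKM were slightly lower there. Nlrp3 RNA was thus 11.1 times that of Pycard in the WT-labelled library and 0.0256 times in the other. Of the FPKM summed over the 10 members (426 and 160), Nlrp3 held 34.2% in the WT-labelled library and 0.642% in the TK-labelled library, where Pycard with 25.04% and Casp1 with 23.95% were the leading members. The counting intervals of that pair overlapped, as did those of Gsdmd and Casp8 in the same library, so neither pair has a clear order there.

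**Figure D3:**
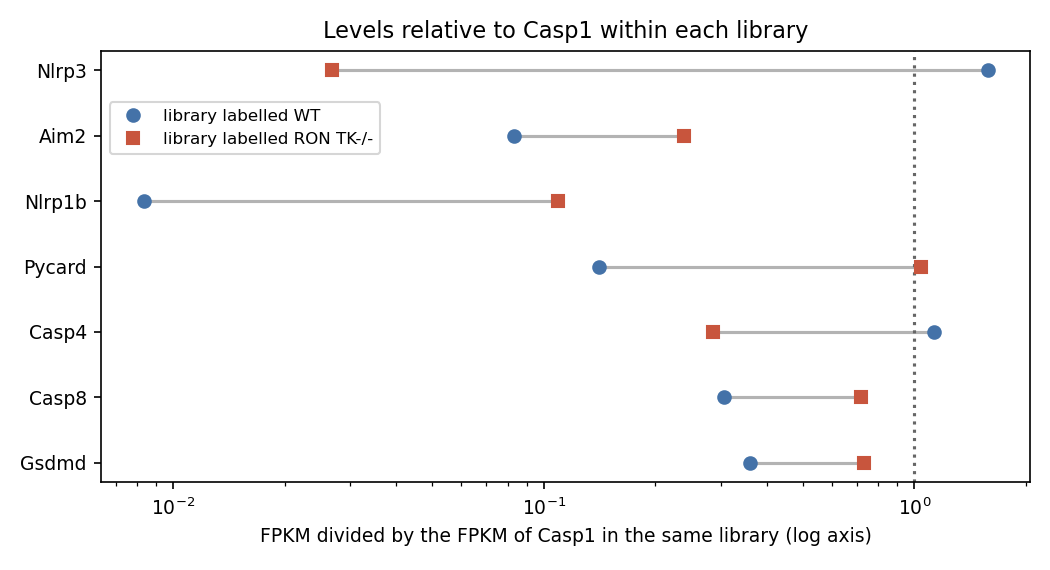
FPKM of each detected member divided by that of Casp1 in the same library, on a log axis, circles for the WT-labelled library and squares for the TK-labelled library. Nlrp3 (1.58 to 0.0268) and Casp4 (1.13 to 0.286) move down against Casp1, and the other 5 members shown move up. Casp1 itself is 2.41-fold lower in the TK-labelled library, and Gsdmd and Casp8 move up without a rise in their own FPKM.

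The 5 genes with the pair of values most like that of Nlrp3, by Euclidean distance of log2(FPKM + 1) over the 2 libraries, were Gbp9 (131 and 1.59 FPKM, distance 0.385), Oasl1 (187 and 0.796, distance 0.396), Serpina3f (195 and 0.747), Gbp6 (120 and 0.526) and Gbp10 (106 and 0.546). A likeness over 2 libraries is a description only, and Gbp genes are similar copies whose single values are uncertain.

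The wider pathway was taken from 9 lists of 110 genes in all, members left out, of which 98 were detected. Past the 2-fold line lay 44 on the lower and 12 on the higher side in the TK-labelled library, beside the 8.71% and 25.6% of all detected genes. After median rescaling the counts were 49 and 5, beside 13.9% and 8.42% of all detected genes. The 2 lists nearest to the intracellular DNA and endotoxin branches were lowest.

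In the list of the non-canonical pathway and guanylate binding proteins (GBPs), which coat bacteria and help expose endotoxin to the Casp4 product, 11 of 13 detected genes passed 2-fold on the lower side and 0 on the higher side, with a median log2 ratio of -5.67. The counts were the same after median rescaling. Of all detected genes 8.71% were lower and 25.6% higher as deposited, and 13.9% and 8.42% after rescaling. Gbp5 had 584 and 0.614 FPKM, Gbp4 399 and 0.227, Gbp3 408 and 1.52, and Gm12250, which encodes the immunity-related GTPase Irgb10, 127 and 0.793. The 2 genes within 2-fold were Casp12 and Irf2, a transcription factor known to act on Gsdmd, with 21.6 and 21.6 FPKM.

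Relatives of Aim2, and other genes of DNA sensing listed with them, mostly differed where Aim2 itself was near equal. Of 12 detected AIM2-like receptors and DNA sensing genes, 11 lay past 2-fold on the lower side and 0 on the higher side (the same counts after rescaling). Shares over all detected genes were 8.71% lower and 25.6% higher, or 13.9% and 8.42% after rescaling. The median of the list was -2.24, and the gene within 2-fold was Mb21d1 (cGAS, 3.33 and 2.36 FPKM). Ifi203 had 98.2 and 5.06 FPKM, Ifi205 18.9 and 0.601, Pyhin1 40.9 and 2.55, and the nucleic acid sensor Zbp1 98.0 and 11.1. The Ifi200 genes are similar neighbouring copies, and their single values are uncertain.

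Sensor relatives and partners held genes past 2-fold on both sides. Of 18 genes 11 were detected, 4 were at least 2-fold lower and 2 higher, and the median was 0.39, below that of all genes. Beside all detected genes (8.71% lower, 25.6% higher), the share on the lower side was larger and that on the higher side smaller. The lower ones were the peptidoglycan sensors Nod2 (18.5 and 0.894 FPKM) and Nod1 (30.0 and 7.07), their kinase Ripk2 (175 and 34.8) and Nlrc5 (39.8 and 3.2), a transactivator of MHC class I genes. The higher ones were Naip5 (1.32 and 4.81) and Naip6 (1.12 and 3.37), sensors that pass flagellin recognition to NLRC4, and neither stayed past 2-fold after rescaling. They are near-identical copies. After rescaling the list held 4 lower and 0 higher genes, beside 13.9% and 8.42% of all detected genes. Nek7, the kinase that NLRP3 needs to assemble, had 24.2 and 32.0 FPKM, and the ATP-gated channel P2rx7, a classic trigger of NLRP3, 11.2 and 8.31 FPKM.

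Of the genes of pyrin regulation 1 of 9 was lower and 2 were higher (1 and 1 after rescaling), with a median of 0.28. As deposited these counts were near the shares of all detected genes, 8.71% lower and 25.6% higher. After rescaling they were near those shares too, then 13.9% and 8.42%. Pstpip1, a pyrin binding protein, had 7.51 FPKM in the WT-labelled library and 54.8 in the other. The GTPase Rhob had 497 and 104 FPKM, while Rhoa had 264 and 358.

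The caspase-8 list, with the genes of necroptosis, had 7 of 15 genes lower and 1 higher (the same counts after rescaling), with a median of -0.11. Beside these, 8.71% of all detected genes were lower and 25.6% higher (13.9% and 8.42% after rescaling). The ubiquitin editor Tnfaip3 had 189 and 7.0 FPKM, the ubiquitin ligase Birc3 104 and 7.74, and Cflar, the inhibitory partner of caspase-8, 198 and 21.03. Mlkl, the pore protein of necroptosis, had 37.0 and 9.95 FPKM, while its kinase Ripk3 had 28.1 and 26.8. The gene that was higher was the death receptor adaptor Tradd (5.3 and 19.7 FPKM), and Fadd, which binds caspase-8, had 2.03 and 4.79.

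Caspases outside the membership were not lower as deposited: 2 of 5 detected were higher and 0 lower, with a median of 0.72. Over all detected genes 25.6% were higher and 8.71% lower. After rescaling 2 of these caspases were higher and 1 lower, beside 8.42% and 13.9% of all detected genes. The higher ones were Casp9, the initiator of the mitochondrial pathway of apoptosis (1.15 and 17.3 FPKM), and the effector Casp6 (6.15 and 45.5). Casp2 had 2.83 and 5.31 FPKM.

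Substrates and products were lower for 5 of 8 detected genes and higher for 0 (the same counts after rescaling), with a median of -1.87. Over all detected genes 8.71% were lower and 25.6% higher (13.9% and 8.42% after rescaling). Il1a had 418 and 0.725 FPKM, Il33 10.6 and 0.212 and Il18 33.3 and 4.69, so the Il18 difference (7.09-fold by FPKM) was smaller than that of Il1b (4125-fold). About 18 estimated reads stood behind the Il1b value in the TK-labelled library. Ninj1, which ruptures the membrane after gasdermin pores form, had 346 and 155 FPKM.

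Inhibitors and decoys also held genes past 2-fold on both sides. Past 2-fold, 5 of 14 detected genes were lower and 3 higher (7 and 1 after rescaling), with a median of -0.39. As deposited the share of lower genes was above the 8.71% of all detected genes, and that of higher genes was below the 25.6%. After rescaling the shares of all detected genes were 13.9% lower and 8.42% higher. The receptor antagonist Il1rn had 1269 and 35.4 FPKM, the interleukin-18 decoy Il18bp 21.2 and 2.92, Trim30a 175 and 16.2, the checkpoint ligand Cd274 491 and 26.1, and the decoy receptor Il1r2 1.98 and 0.151. Serpinb1a, an inhibitor of inflammatory caspases, ran the other way with 1.75 FPKM in the WT-labelled library and 46.1 in the TK-labelled library. The others that were higher were Serpinb6a (193 and 447) and the autophagy gene Atg5 (9.04 and 21.4), which were no longer past 2-fold after rescaling.

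Genes of membrane repair were mostly within 2-fold. The list holds ESCRT-III proteins, which remove membrane with gasdermin pores, their ATPases Vps4a and Vps4b, and the annexin Anxa2. Of 11 detected genes 2 were higher and 0 lower as deposited, with a median of 0.30. The share of higher genes was below the 25.6% of all detected genes. After rescaling 0 were higher and 2 lower, beside 8.42% and 13.9% of all detected genes, so the lower count was near that share. The lower ones were other genes. These were Chmp2b (log2 ratio -0.54 as deposited and -1.17 rescaled) and Chmp4b (-0.76 and -1.41), both already below 0 as deposited. Anxa2 had 372 and 821 FPKM and Chmp6 9.7 and 26.4, while Chmp4b, the filament-forming subunit, had 205 and 121.

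**Figure D4:**
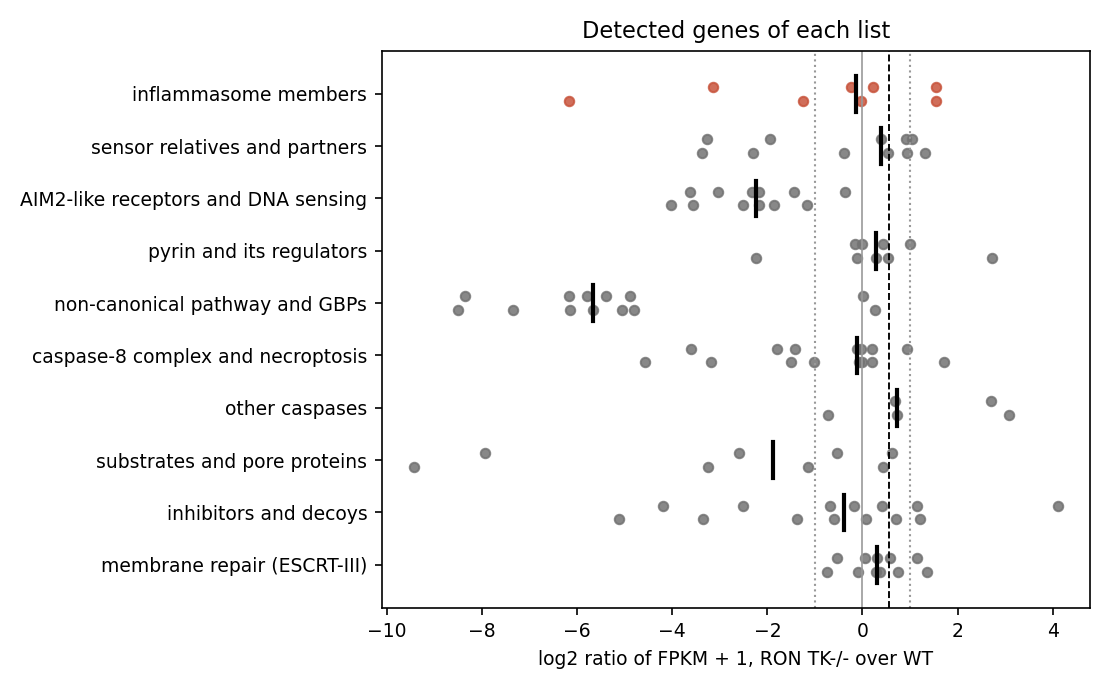
log2 ratio of FPKM + 1, RON TK-/- over WT, of each detected gene (points) in the inflammasome members (red) and the 9 pathway lists (grey), with black bars for list medians, dotted lines at 2-fold and a dashed line at the median of all detected genes (0.57). The list of the non-canonical pathway and GBPs lies lowest (median -5.67), followed by AIM2-like receptors and DNA sensing (-2.24).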

How the data were processed

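RNA was measured in 2 libraries, 1 per group, read as single reads of 50 bases after a TruSeq RNA kit, per the labels' protocols. Values deposited by the authors are FPKM per RefSeq transcript, in 1 table of 31580 rows for each library, all with status OK; the columns carry the names that Cufflinks gives them, per the file headers. A deposited coverage column (mean depth of reads over a transcript, per the file headers) served only to estimate reads. The build mm10 and the program DESeq stand in the submitters' processing notes; aligner, annotation release and use of strand are in no source used here. Starts in the tables count from 0 and were converted to count from 1.

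FPKM was summed over the transcripts of each symbol (Python 3.11.15, pandas 2.3.3, scipy 1.17.1). Detected means at least 1 FPKM in either library, and ratios use a pseudocount of 1. No test or p-value was possible with 1 library per group. The procedure was run on simulated counts with planted differences, drawn with counting error only. That run says nothing of the variation between animals or cultures. Members, lists and named genes were chosen with earlier results of these data known. Named genes were all members, Mst1r, Arg1 and Il1b, up to 4 detected genes per list with the largest absolute ratio, those completing a count of 5 or fewer, and the 5 genes nearest to Nlrp3; other list genes named for their role (such as Nek7, P2rx7, Rhoa, Fadd and Chmp4b) were chosen after their values were seen. Alternatives were other pseudocounts, filters, scalings, row choices and thresholds. Exon numbers and overlaps come from GENCODE M21, on the same assembly. A few list genes and 1 motif are not reported here.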

Additional observations from a re-analysis of the deposited data

How the results depend on the processing

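The calls of Nlrp3, Casp4 and Casp1 as at least 2-fold lower held under each alternative with a 2-fold or 1.5-fold line, and 2 of them passed a 4-fold line, with or without median rescaling. The count of members at least 2-fold higher (2 as reported) was 1 with a pseudocount of 5, with a 5 FPKM minimum and after median rescaling, and 0 with a 4-fold line, alone or with median rescaling. Nlrp1b stood at 0.67 with a pseudocount of 5 and at 2.30 with 0.1, and Pycard at 1.32 and 1.61. The median over detected members (-0.14) was -0.24 with a 5 FPKM minimum, -0.77 after median rescaling and -0.018 when a gene was represented by its most abundant row. Pathway genes higher (12) numbered 5 after median rescaling, 20 at 1.5-fold, 4 at 4-fold and 4 at 4-fold with rescaling; those lower ranged from 34 to 49 against 44. Casp8 turned from -0.04 to 0.21 with the most abundant row only, and Aim2 turned to -0.36 with median rescaling. No paired analysis was possible because each group holds 1 library. Depth limits Mefv and Nlrc4, whose values rest on 8 to 162 estimated reads.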

Other observations

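Transcript values belong to no comparison above. Casp8 was listed as 3 transcripts. The one that starts at 58795374 on chromosome 1 held 65.1% of the gene's FPKM in the WT-labelled library (18.5 FPKM) and 77.8% in the TK-labelled library (21.5 FPKM). The others, which start at 58802502, went from 6.4 to 4.41 and from 3.5 to 1.72 FPKM. As deposited, the near-equal sum for Casp8 thus held 1 transcript that was higher and 2 that were lower in the TK-labelled library. With that library rescaled to a median ratio of 0 the main transcript stood at 13.6 FPKM and was lower too, while the shares do not depend on scaling. Nlrp1b was listed as 2 transcripts, and the one with the upstream start (71230733 on the minus strand of chromosome 11) held 8.11% of the gene's FPKM in the TK-labelled library on about 91 estimated reads, and about 0 reads in the WT-labelled library. Single reads of 50 bases are divided between transcripts by a model, so these splits are estimates without an error here.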
